A study of Mus musculus with 10 samples.

Results

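The small MAF proteins and their CNC partners are basic leucine zipper transcription factors that bind DNA in pairs. Maff, Mafk and Mafg encode the small MAFs, which have a DNA-binding zipper but no activation domain. A small MAF paired with another small MAF occupies its sites without activating them, whereas a small MAF paired with NRF1 (Nfe2l1) or NRF2 (Nfe2l2) activates genes for glutathione synthesis, quinone detoxification and the proteasome. BACH1 and BACH2 pair with the same small MAFs and repress many of those sites, and KEAP1 delivers NRF2 to the proteasome when oxidants are low. Maf encodes a large MAF, which carries its own activation domain.

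The family was taken as 9 named genes, and every Ensembl transcript annotated to them in the count files was a member. That gave 17 transcripts of 7 genes, of 22534 transcripts of 13184 genes in the files. Bach2 and Keap1 had no transcript among the counts and were not analysed here. The genes were chosen with their response to KCl in these libraries already known, so their changes in RNAseq, RF and TE describe them and are no independent test.

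Primary cortical cultures from newborn (P0) FVB mice held neurons and glia together. After 7 days in culture, 3 cultures stayed untreated and 2 received 55 mM KCl for 3 h, which depolarizes neurons. All were treated with cycloheximide (100 ug/ml, 7 min) before lysis, and each lysate gave an RNAseq library and a ribosome footprinting (RF) library. RNAseq counted reads on the whole transcript, RF counted footprints on the coding sequence (CDS), and translation efficiency (TE) is the ratio of RF to RNAseq in reads scaled to length and library size (RPKM). The cultures carried no genetic alteration by their labels. Cultures 1 to 3 below are the untreated ones and cultures 4 and 5 the KCl ones.

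RNAseq libraries held 3056286 to 3629959 reads and RF libraries 1463654 to 7719915, the shallowest RF libraries being those of cultures 3 and 4. A transcript counted as measured if 2 or more cultures each showed an RPKM of 10 or above in both assays, and 7258 did. Of the 17 member transcripts 12 passed: 2 of Maff, 2 of Mafk, 1 of Mafg, 6 of Nfe2l1 and 1 of Nfe2l2. Both Mafk transcripts and that of Mafg passed through the 2 KCl cultures alone, so their place among measured transcripts already depended on a high level after KCl. Summed RNAseq RPKM of 8 astrocyte markers ran from 2900 to 3350 in untreated cultures and from 2470 to 2610 in KCl cultures, while that of 8 listed neuronal markers (180 to 251 against 212 to 213) overlapped. Sums were also lower with KCl for markers of the oligodendrocyte lineage (1330 to 1500 against 1230 to 1250), microglia (155 to 179 against 131 to 151) and fibroblasts and mural cells (145 to 170 against 112 to 132). Endothelial markers stayed at 4.36 to 6.31, and no listed marker was at 0 in every RNAseq library. These sums are scaled to length and library totals only. In the RNAseq fit (adjusted p under 0.05), 3 of 8 measured astrocyte markers fell, beside 1 of 6 of the oligodendrocyte lineage. For microglia and neurons it was 0 of 3 each, and for fibroblasts and mural cells 1 of 3. No measured marker rose, and 16.1% of all measured genes fell. Fewer cells of a type and less RNA per cell cannot be told apart in such bulk libraries, and the part of these differences in the results was not tested.

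Promoters of the 3 small MAF genes held some of the same short motifs, and the windows around them are shown as sequence. The part of any motif in the changes after KCl was not tested. Promoters (250 bases before to 50 after a RefSeq start, GRCm38.p6) were found for 8 of the 9 genes, 14 in all, and for none of Maf. Each motif was searched on both strands. The cAMP response element TGACGTCA, the site of CREB in activity-regulated genes, stood in 1.79% of 32851 promoters and, among the members, only in a Maff promoter, 29 bases before the start. That start is the one of the Maff transcript with the most reads. The shorter core TGACG, which the full element holds on both strands, was found in 20.8% of promoters. Among the 14 member promoters 5 held it, with at least 1 of Maff, Mafk, Mafg and Nfe2l1. The matches nearest to the starts of the small MAF genes are in capitals.
Maff, chr15:79347482-79347507, plus strand: ctggggcggTGACGTCActgcatgac
Mafk, chr5:139791485-139791510, plus strand: ggcggggcggTGACGcgcttcgacgc
Mafg, chr11:120633554-120633579, minus strand: aaacatcatgTGACGtctgaggagcg

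The E-box CACGTG was present in 7.15% of promoters and, among the members, in those of Maff, Mafk and Mafg, at 191, 208 and 41 bases before the start.
Maff, chr15:79347319-79347344, plus strand: ccagaggtgtCACGTGaatgcatcca
Mafk, chr5:139791318-139791343, plus strand: gagacaactgCACGTGgaagcatgta
Mafg, chr11:120633573-120633598, minus strand: gaatggaaccCACGTGaccaaacatc

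The antioxidant response element core TGACNNNGC, the site of CNC and small MAF pairs, was in 12.4% of promoters. It was in 4 of the 14 member promoters, which belong to Maff, Mafk, Mafg and Nfe2l2. The MARE core TGCTGA (19.5% of promoters) was in 5 of the 14, which belong to Mafk, Nfe2l1 and Bach1. The NF-kB pattern (20.7%) was in 4 of the 14, which belong to Maff, Nfe2l1, Bach2 and Keap1. The AP-1 pattern TGANTCA (7.81%) and the CArG box of serum response factor (1.63%) were in no member promoter. Only these 8 patterns were searched, some can overlap, and a match is a stretch of letters and not a bound site.

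In untreated cultures the CNC activators were the most abundant transcripts of the family and the small MAFs were low. Mean RNAseq levels were 91.4 ± 11.2 RPKM (SD, n = 3) for Nfe2l2 and 39.6 ± 1.78 for Nfe2l1, against a median of 21.5 over measured transcripts. They were followed by Maff (16.0 ± 4.49), Mafg (9.43 ± 0.583), Bach1 (6.11 ± 0.516), Mafk (3.53 ± 1.32) and Maf (1.97 ± 0.652). No neighbours in this order overlapped in their ranges over the 3 cultures. Ribosome occupancy followed a similar order at the top, with 160.0 ± 24.8 RPKM for Nfe2l2 and 63.3 ± 2.82 for Nfe2l1. Below them Maff (21.9 ± 3.35), Bach1 (17.8 ± 1.66), Mafg (14.5 ± 3.15), Maf (12.2 ± 1.67) and Mafk (7.99 ± 3.27) each overlapped with the next.

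Untreated TE separated Maf from the rest. Maf had a TE of 6.88 ± 3.08 (SD, n = 3), above 97.8% of measured transcripts, although this rests on 12 to 25 RNAseq reads per untreated library. Bach1 followed at 2.92 ± 0.285, and from Bach1 down through Mafk (2.43 ± 1.19), Nfe2l2 (1.78 ± 0.423), Nfe2l1 (1.60 ± 0.0997), Mafg (1.54 ± 0.324) and Maff (1.47 ± 0.565) every neighbour overlapped with the next. The median measured transcript had a TE of 1.69.

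**Figure D1:**
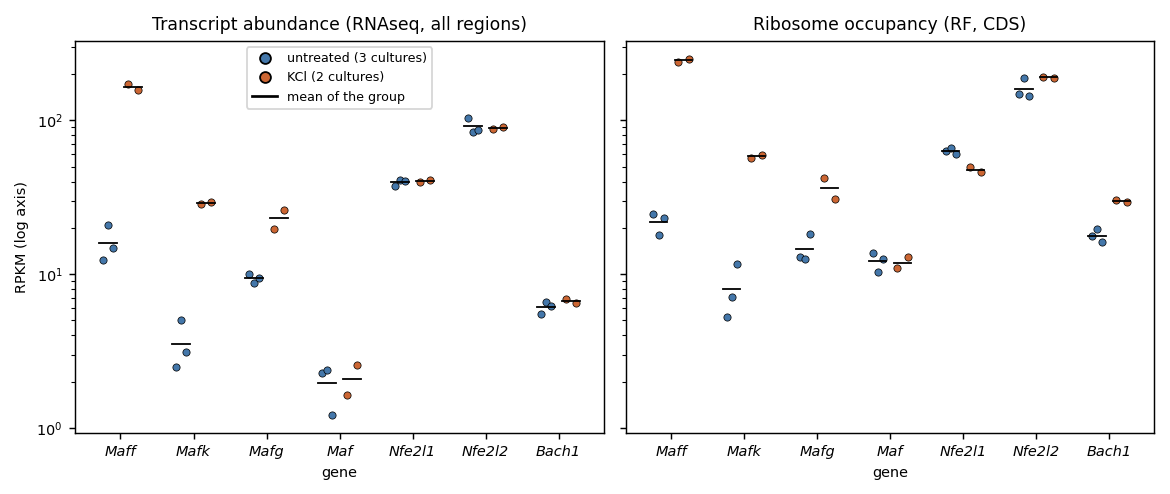
RPKM of the transcript with the most RNAseq reads of each gene on a log axis, RNAseq on the left and RF on the right. Points are cultures (3 untreated in blue, 2 KCl in orange) and bars are group means. Maff, Mafk and Mafg sit higher in both KCl cultures in both assays, Bach1 is clearly higher in RF, and Nfe2l1 is lower in RF.

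Maff showed the largest change of the family, with about 10.3 times more transcript and 11.2 times more ribosome occupancy after KCl. Its main transcript, ENSMUST00000096350 (chr15:79347520-79359076, plus strand, 3 exons), measured 12.4, 21 and 14.7 RPKM by RNAseq in cultures 1 to 3 and 172.0 and 157.0 in cultures 4 and 5. RF on its CDS measured 24.5, 18.1 and 23.2 RPKM untreated and 240.0 and 252.0 with KCl. Both KCl cultures lay far above every untreated culture in both assays, where 27.0% of measured transcripts had both KCl cultures above all untreated ones in RNAseq and 30.8% in RF. The log2 fold change was 3.43 (SE 0.16) in RNAseq and 3.62 (SE 0.16) in RF. These came from 79 to 133 untreated and 1091 to 1118 KCl RNAseq reads, and from 16 to 89 untreated and 182 to 371 KCl footprints. A second listed transcript, ENSMUST00000163691, differs before the CDS, shares nearly all of these RNAseq reads and all CDS footprints, and had the same log2 fold changes.

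Mafk rose about as strongly from a lower level. ENSMUST00000018287 (chr5:139791513-139802653, plus strand, 3 exons) measured 2.48, 5.0 and 3.10 RPKM by RNAseq in untreated cultures and 28.4 and 29.4 with KCl. Its RF values were 5.23, 7.13 and 11.6 RPKM untreated and 56.8 and 59.9 with KCl. The groups were again wide apart, although the untreated values rest on only 23 to 46 RNAseq reads and 8 to 22 footprints per library. The log2 fold change was 3.10 (SE 0.22) in RNAseq and 3.22 (SE 0.28) in RF. The second transcript, ENSMUST00000110836, has the same CDS and gave 2.95 (SE 0.27) in RNAseq. Over 169 bases the main transcript overlaps exons of Tmem184a on the opposite strand, and reads of this unstranded cDNA kit on those bases cannot be assigned to either gene.

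Mafg rose less than its paralogs. ENSMUST00000058162 (chr11:120625117-120633600, minus strand, 3 exons) measured 9.97, 8.81 and 9.50 RPKM by RNAseq untreated and 19.8 and 26.3 with KCl. RF gave 13.0, 12.5 and 18.2 RPKM untreated and 42.0 and 30.8 with KCl. Neither assay overlapped between groups, and the log2 fold changes were 1.36 (SE 0.16) and 1.5 (SE 0.27). Among measured transcripts 27.0% in RNAseq and 30.8% in RF had both KCl cultures above all untreated ones. Mafg also passed the filter through the KCl cultures alone. The 3 shorter Mafg transcripts share the CDS, and hence its footprints, but had only 2 to 21 RNAseq reads per library and did not pass the RPKM filter. In the RNAseq fit without a filter they had log2 fold changes between 0.48 and 1.03, and none passed the threshold. The main transcript overlaps an exon of Sirt7 by 124 bases on its own strand.

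Maf, the large MAF, had no such rise. It had 24, 25 and 12 RNAseq reads untreated and 17 and 30 with KCl, and 121, 78 and 21 CDS footprints untreated and 20 and 46 with KCl. Per length and depth its RF level was 13.7, 10.4 and 12.6 RPKM against 10.9 and 12.9, and the groups overlapped. In fits without a filter its log2 fold change was 0.23 (SE 0.40, 95% interval -0.56 to 1.02) in RNAseq and 0.16 (SE 0.26, -0.34 to 0.67) in RF. The RNAseq interval includes rises of up to 1.02 on the log2 scale.

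Transcript levels of the CNC activators NRF2 and NRF1 stayed within a narrow range. Nfe2l2 (ENSMUST00000102672, chr2:75675513-75704641, minus strand, 5 exons) measured 104.0, 83.9 and 86.1 RPKM by RNAseq untreated and 87.8 and 90.5 with KCl, and the groups overlapped. Its log2 fold change was 0.03 (SE 0.13, 95% interval -0.23 to 0.30). Its ribosome occupancy was 149.0, 188.0 and 143.0 RPKM untreated and 192.0 and 189.0 with KCl. The KCl values lay just above the highest untreated one, and after TMM scaling they were 387.0 normalized CPM in both KCl cultures against 276.0 to 352.0 untreated. In RF 30.8% of measured transcripts likewise had both KCl cultures above all untreated ones. RF rose by 0.34 on the log2 scale (SE 0.10) and passed the threshold, but not without culture 4, without culture 5, with library totals in place of TMM (0.24), or with at least 100 reads in every library (0.22).

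Nfe2l1 moved the other way in RF. Its transcript with the most RNAseq reads, ENSMUST00000167149 (chr11:96817414-96829502, minus strand, 5 exons), measured 37.6, 40.7 and 40.6 RPKM by RNAseq untreated and 39.8 and 40.8 with KCl. After TMM scaling these levels were 170.0, 183.0 and 182.0 normalized CPM untreated and 188.0 and 193.0 with KCl. The scaled groups did not overlap, as for 27.0% of measured transcripts in this direction. The transcript had a log2 fold change of 0.10 in RNAseq (SE 0.13, 95% interval -0.17 to 0.36). Its CDS occupancy was 63.3, 66.1 and 60.5 RPKM untreated and 49.4 and 46.1 with KCl, so that both KCl cultures lay below every untreated one, as for 30.6% of measured transcripts. RF fell by 0.31 on the log2 scale (SE 0.11) and passed the threshold. The call was lost with DESeq2, without culture 4 or culture 5, and without the RPKM filter (fold change -0.25). The other 5 Nfe2l1 transcripts largely share these reads and had RF log2 fold changes from -0.35 to -0.25, of which 4 passed.

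Bach1, the repressor that competes with NRF2 for small MAFs, gained footprints without a change in transcript past the threshold. ENSMUST00000026703 (chr16:87698945-87733346, plus strand, 5 exons) measured 5.54, 6.55 and 6.25 RPKM by RNAseq untreated and 6.85 and 6.48 with KCl, which kept it under the RPKM filter. After TMM scaling its RNAseq level was 32.1, 37.6 and 35.8 normalized CPM untreated and 41.3 and 39.2 with KCl. These groups did not overlap, and 27.0% of measured transcripts likewise had both KCl cultures above all untreated ones. RF gave 17.6, 19.6 and 16.3 RPKM untreated and 30.2 and 29.6 with KCl, from 53 to 301 untreated and 108 to 205 KCl footprints. In RF the KCl cultures were about 1.68 times higher and did not overlap with the untreated, as for 30.8% of measured transcripts in this direction. In fits without a filter the log2 fold change was 0.26 (SE 0.20) in RNAseq, which did not pass the threshold, and 0.89 (SE 0.15) in RF, which did and also did in each of 7 other fits (0.73 to 0.96).

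Across the 12 measured member transcripts, 5 rose in RNAseq and 7 did not pass, where 17.5% of all 7258 transcripts rose and 15.7% fell (edgeR quasi-likelihood test, Benjamini-Hochberg adjusted p under 0.05). In RF 6 rose and 5 fell, where 21.2% rose and 19.8% fell. Because the family was chosen on this contrast, and transcripts of a gene share reads, nothing is read from these shares. With library totals in place of TMM the whole table tilted lower, from 1270 higher and 1140 lower to 1097 and 1483 in RNAseq and from 1538 and 1435 to 1186 and 1916 in RF. The median RF change moved from -0.003 to -0.107 on the log2 scale, while Maff (3.51), Mafk (3.12) and Mafg (1.39) still rose in RF. Among the 5 member transcripts outside the measured set, none passed in RNAseq (1 had an unadjusted p under 0.05, and DESeq2 without a filter called 0), where 19.0% of 21950 transcripts passed without a filter. In RF 4 rose, where 13.4% of 20864 did, and 3 of the 4 are the Mafg transcripts with the same CDS.

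**Figure D2:**
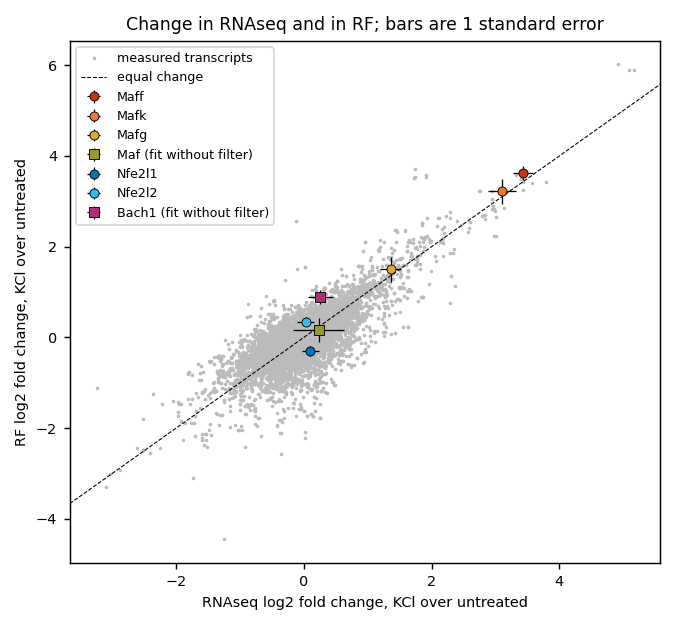
RNAseq log2 fold change (horizontal) against RF log2 fold change (vertical), KCl over untreated, for all measured transcripts in gray and for the member genes in color with bars of 1 standard error. Maff and Mafk lie at the upper end near the dashed line of equal change, Mafg lies midway along it, Bach1 and Nfe2l2 lie above it and Nfe2l1 below it.

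Translation efficiency changed in no measured member past the threshold. Of 12 transcripts 0 passed in the edgeR interaction test, where 5.73% of all measured transcripts did. The unadjusted p was under 0.05 for 5 of them, all of Nfe2l1, as for 16.9% of measured transcripts, and DESeq2 called 0. Maff had a TE of 1.98, 0.862 and 1.58 untreated and 1.40 and 1.60 with KCl, a log2 change of 0.19 (SE 0.24, 95% interval -0.29 to 0.67). Mafk had 2.11, 1.43 and 3.74 against 2.00 and 2.04, a change of 0.07 (SE 0.34, -0.60 to 0.73), and Mafg had 1.30, 1.42 and 1.91 against 2.12 and 1.17, a change of 0.11 (SE 0.31, -0.50 to 0.71). The groups overlapped for all 3 small MAFs, and the intervals include changes of up to 0.73 for Mafk and 0.71 for Mafg. Leaving out single cultures turned the sign of each of these 3 changes.

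For Nfe2l1 and Bach1, unlike the small MAFs, TE did not overlap between the groups, though the change was not compared between genes. Nfe2l1 had a TE of 1.69, 1.62 and 1.49 untreated and 1.24 and 1.13 with KCl, a log2 change of -0.41 (SE 0.19, 95% interval -0.78 to -0.03). Its groups did not overlap, as was so in this direction for 17.5% of measured transcripts. Bach1 had 3.17, 2.99 and 2.61 against 4.42 and 4.57, a log2 change of 0.64 (SE 0.27, 0.12 to 1.16) in the fit without a filter. Its KCl values lay above all untreated ones, as did those of 16.7% of measured transcripts, and the adjusted p did not pass. Nfe2l2 had 1.43, 2.25 and 1.66 against 2.18 and 2.09, which overlapped, with a log2 change of 0.32 (SE 0.17, -0.01 to 0.66). Maf had 6.0, 4.33 and 10.3 against 6.68 and 5.03.

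**Figure D3:**
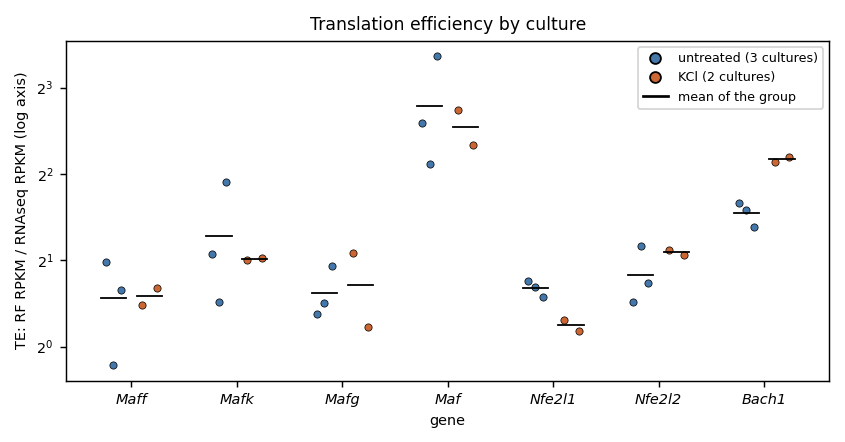
Translation efficiency (RF RPKM over RNAseq RPKM, log axis) of each gene, with 3 untreated cultures in blue, 2 KCl cultures in orange and group means as bars. KCl cultures lie below the untreated for Nfe2l1 and above them for Bach1, and the groups overlap for the other genes.

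The RNAseq reads of the small MAFs lay almost wholly in the 3′UTR. Maff had 1, 0, 1, 2 and 3 RNAseq reads on its CDS in cultures 1 to 5, beside 78, 133, 87, 1089 and 1110 on its 3′UTR. On the same CDS the RF libraries held 89, 56, 16, 182 and 371 footprints. Summed over the 5 RNAseq libraries, 0.279% of Maff reads fell in the CDS, which makes up 24.1% of the transcript. Per kilobase the CDS had 0.00727 times the reads of the 3′UTR, where the median of 6114 measured transcripts with both UTRs was 0.633, and only 0.605% of them had a lower ratio. Mafk (8 CDS and 647 3′UTR reads, ratio 0.0560) and Mafg (15 and 1207, ratio 0.106) were also low, with 2.03% and 4.76% of transcripts below them.

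The other members did not share this. The ratio was 0.736 for Nfe2l1, 0.955 for Maf, 1.14 for Bach1 and 1.89 for Nfe2l2. The CDS of Maff holds 69.9% GC, more than 99.6% of measured transcripts, and those of Mafg and Mafk hold 61.8% and 60.1%, against a median of 53.1%. Maf, with 68.4% GC, more than 99.4% of measured transcripts, had its ratio of 0.955 from 39 CDS and 66 3′UTR reads. Across the 6114 transcripts CDS GC and the ratio had a Spearman rho of -0.252, a description across transcripts of the same libraries. The part of base composition in the missing CDS reads was not tested. RNAseq changes of the small MAFs are thus changes of 3′UTR reads. With RNAseq reads on the CDS alone none of the 12 transcripts passed, and the fold changes were 1.74 for Maff, 3.00 for Mafk and 0.02 for Mafg, from 0 to 5 reads per library. The level and TE of a small MAF per full length share this limit, since most of the transcript before the 3′UTR gave almost no reads.

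**Figure D4:**
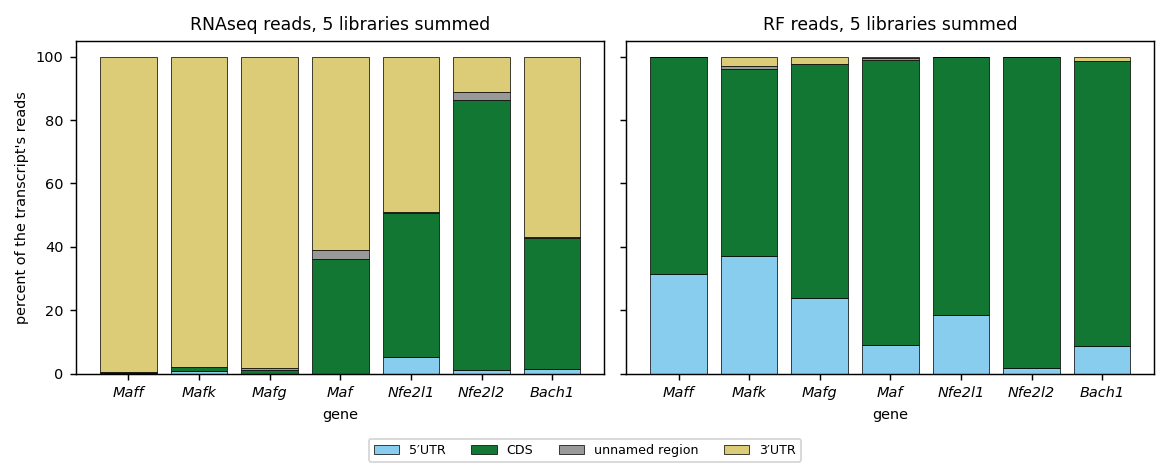
Percent of each transcript's RNAseq reads (left) and RF reads (right) on the 5′UTR, CDS, an unnamed region and the 3′UTR, 5 libraries summed. RNAseq of Maff, Mafk and Mafg is nearly all 3′UTR (99.5%, 97.7% and 98.2%), while their footprints lie on the CDS and 5′UTR.

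The main transcripts of the small MAFs, those with the most RNAseq reads, also carried many footprints before the CDS. Maff had 28, 24 and 8 footprints on its 5′UTR untreated and 62 and 207 with KCl, and its 5′UTR share of 5′UTR and CDS footprints was 23.9%, 30.0% and 33.3% against 25.4% and 35.8%. The groups overlapped, so 5′UTR and CDS footprints increased side by side. Summed over the libraries the share was 31.5%, more than in 93.8% of measured transcripts, whose median was 5.13%. The share depended on the transcript: the second Maff transcript, which starts elsewhere, had 6.18%, the second Mafk transcript 18.2% and the 3 shorter Mafg transcripts 4.71% to 11.2%. The share is not scaled to length, and the CDS of Maff has only 471 bases. Per kilobase the 5′UTR of the main Maff transcript had 1240 footprints and its CDS 1520. The same values were 467 and 382 for Mafk, 221 and 372 for Mafg, 535 and 429 for Bach1 and 1030 and 1230 for Nfe2l1. For Maf they were 124 and 250 and for Nfe2l2 464 and 3490. Per kilobase a dense 5′UTR was thus not particular to the small MAFs. The 5′UTR of the main Maff transcript, of 266 bases, holds 1 upstream AUG.

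The 5′UTR of Mafk (244 bases, no upstream AUG) had 18, 4 and 4 footprints untreated and 24 and 64 with KCl, with shares of 48.6%, 15.4% and 33.3% against 35.8% and 42.1%. Its 95% Wilson interval in culture 3 reached from 13.8% to 60.9%, and the groups overlapped. Mafg (267 bases, 3 upstream AUGs) had 9, 7 and 3 untreated and 15 and 25 with KCl. Its shares of 15.5%, 14.9% and 18.8% lay below the 31.2% and 34.7% of the KCl cultures, as was so in this direction for 15.0% of 6113 transcripts. The interval of culture 3 (6.59% to 43.0%) covers both KCl shares. In the 3 shorter Mafg transcripts the KCl shares, 2.94% to 9.62%, overlapped with the untreated ones.

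Among the other genes, each by its transcript with the most RNAseq reads, Nfe2l1 had the most 5′UTR footprints. It had 242, 191 and 71 untreated and 48 and 77 with KCl on a 5′UTR of 608 bases with 4 upstream AUGs, and its shares were 18.2%, 16.5% and 26.5% against 21.3% and 19.4%. The KCl shares lay inside the untreated range. The share again depended on the transcript. Summed over the libraries it ran from 0.0% to 21.3% over the Nfe2l1 transcripts, which hold 0 to 4 upstream AUGs. In ENSMUST00000169828 the KCl shares (25.2% and 25.9%) lay above the untreated ones (20.6%, 19.1% and 24.4%), as for 15.0% of 6113 transcripts. The groups overlapped for Bach1 (10.4%, 5.94% and 10.2% against 10.7% and 8.89%) and Maf (10.4%, 7.14% and 4.55% against 13.0% and 9.80%). Nfe2l2 stood at 2.04%, 1.38% and 2.85% against 1.95% and 1.12%, below the median transcript and with no upstream AUG. In RNAseq, Nfe2l2 had 10.1%, 6.82% and 10.2% of its CDS and 3′UTR reads on the 3′UTR untreated and 18.2% and 12.9% with KCl, and 18.7% of 6113 transcripts likewise had both KCl cultures above all untreated ones. These intervals cover counting error only.

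**Figure D5:**
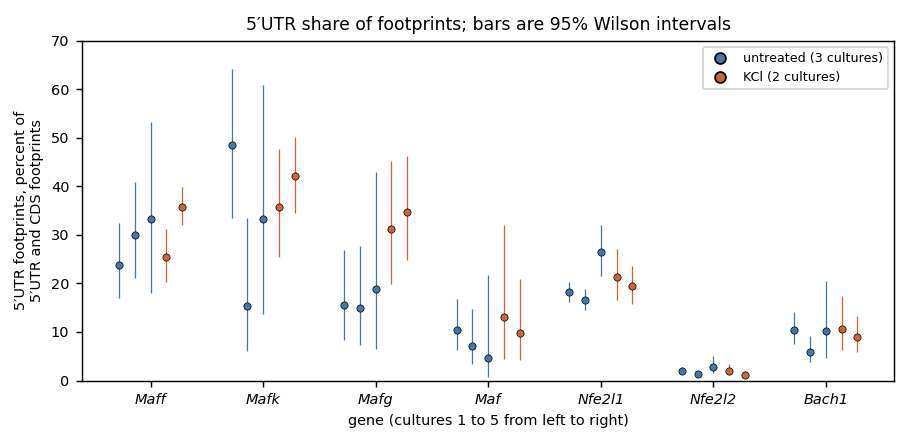
Footprints on the 5′UTR as a percent of 5′UTR and CDS footprints for each gene, cultures 1 to 5 from left to right, untreated in blue and KCl in orange, with 95% Wilson intervals. Maff lies above Nfe2l1, Bach1, Maf and Nfe2l2 in each culture, Mafk and Mafg overlap with Nfe2l1, Nfe2l2 lies lowest, and the KCl points of Mafg lie above its untreated points with overlapping intervals.

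The genes most like Maff and Mafk over the 10 libraries were other transcription regulators. Likeness was the Euclidean distance between log2 CPM profiles, each assay centered on its untreated mean, among 4364 genes. The distance uses the same KCl values with which the family was chosen, so near genes are those with a rise of similar size. The nearness of Maff and Mafk to each other and the small distances beside the medians are thus a description and no independent support. Nearest to Maff were Csrnp1 (distance 0.889), Fosl2 (1.29), Mafk (1.33), Klf5 (1.43) and Crem (1.44), against a median distance of 7.10. Nearest to Mafk were Fosl2 (0.832), Klf5 and Nfil3 (1.12 each), Crem (1.26) and Maff (1.33), with a median of 6.27. FOSL2 is an AP-1 subunit, CREM binds cAMP response elements and NFIL3 is a basic leucine zipper repressor. Their log2 fold changes were 3.43 in RNAseq and 3.25 in RF for Csrnp1, 2.94 and 3.04 for Fosl2, 2.75 and 3.24 for Klf5, 2.94 and 2.83 for Crem, and 3.01 and 2.65 for Nfil3.

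Genes listed around the control of NRF2 and NRF1 rose more often than they fell, in a list that also holds NRF2 targets. Of 19 listed genes 12 were measured, and 7 rose, 1 fell and 4 did not pass in RNAseq, where 16.9% of 4365 genes rose and 16.1% fell. In RF 7 rose, 2 fell and 3 did not pass (21.1% and 19.0% of all genes). Sqstm1, the autophagy receptor that binds KEAP1, rose by 1.29 in RNAseq (SE 0.13) and 1.33 in RF (SE 0.08) on the log2 scale. Hmox1, heme oxygenase, rose by 1.25 (SE 0.14) and 0.93 (SE 0.09), and both genes are also listed as NRF2 targets. Dpp3 fell by 0.72 in RNAseq (SE 0.19), and Btrc and Syvn1 fell by 0.42 and 0.57 in RF (SE 0.16 each). Park7 had -0.09 and 0.27 and Fbxo22 -0.31 and -0.33, none past the threshold. The median was 0.50 in RNAseq and 0.37 in RF, against -0.02 and 0.00 over all genes. The list was chosen with earlier results of these data known, so nothing is read from these shares.

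Of 28 listed antioxidant target genes of NRF2, 17 were measured, and 3 rose, 3 fell and 11 did not pass in RNAseq, with a median of -0.10. These shares are close to those over all genes (16.9% rose and 16.1% fell). The 3 that rose were Hmox1, Sqstm1 and Txnrd1 (0.51, SE 0.13), of which the first 2 also stand in the control list. Srxn1, sulfiredoxin, fell by 2.05 on the log2 scale in RNAseq (SE 0.15) and by 1.40 in RF (SE 0.18). Gsr, glutathione reductase, fell by 0.58 and 0.77. In RF 5 rose, 2 fell and 10 did not pass, with a median of 0.10, where 21.1% of all genes rose and 19.0% fell. Fth1, ferritin heavy chain, had -0.10 in RNAseq (SE 0.13) but rose by 1.51 in RF (SE 0.15), and was the 1 gene of this list past the threshold in TE (1.60, SE 0.19). Txn1 had -0.08 and 0.29, neither past it.

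Proteasome subunit genes, the targets of NRF1, mostly did not pass. Of 34 listed 22 were measured, and in RNAseq 1 rose (Psmb2, 0.35, SE 0.13), 1 fell (Psma6, by 0.39, SE 0.14) and 20 did not pass, with a median of -0.07, where 16.9% of all genes rose and 16.1% fell. In RF 5 rose, 2 fell and 15 did not pass, with a median of 0.14, where 21.1% of all genes rose and 19.0% fell. The largest change was in Psmb1 (0.45, SE 0.14). Psma7, the most abundant one that did not pass, had -0.23 in RNAseq and 0.03 in RF. In TE 0 of 22 passed by edgeR and 0 by DESeq2, and 2 had an unadjusted edgeR p under 0.05, where 1.63% of all genes rose and 4.12% fell past the threshold. Of the 12 control genes 0 passed in TE by either tool and 3 had an unadjusted p under 0.05.

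AP-1 genes, whose products share zipper partners with the MAF family, rose with the small MAFs. Of 10 listed 7 were measured, and 6 rose and none fell in each of RNAseq and RF, with medians of 1.20 and 1.96, where 16.9% of all genes rose in RNAseq and 21.1% in RF. Fosl2 and Atf3 (1.78 in RNAseq, SE 0.16, and 1.96 in RF, SE 0.16) had the largest RNAseq changes. Jund had 0.10 and -0.50 and did not pass. In TE 2 rose by edgeR, Jun (0.74, SE 0.18) and Fos (0.72, SE 0.23), where 1.63% of all genes did, and DESeq2 called 1 of the list.

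The remaining MAF and CNC genes were low, and 4 of 5 had rows but none passed the RPKM filter. Nfe2l3 had 19, 12 and 12 RNAseq reads untreated and 1 in each KCl library, and 42, 44 and 10 against 4 and 9 footprints. In fits without a filter it passed in RNAseq but not in RF.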

How the data were processed

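The authors used Trimmomatic (0.32) for adapters, STAR (2.3.1z8) to discard rRNA and Bowtie2 (2.2.2) to align to an mm10 transcriptome of Ensembl release 75 and deposited raw counts per transcript region from bedtools (2.20.1), without normalization. They left out a further KCl replicate for its small library. Region letters were read from their order and read shares, and 1 stayed unnamed. Of 22534 transcripts 22172 (98.394%) matched GENCODE M21, which gave names, lengths and coordinates (GRCm38). Isoforms share reads in these counts.

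RNAseq reads on all regions and RF reads on the CDS were fitted in edgeR 4.0.16 (R 4.3.3; robust quasi-likelihood, TMM within each assay, Benjamini-Hochberg over all measured transcripts), and TE as the assay by KCl interaction with culture as a block. Standard errors are the fold change over the root of F, and the fits were tested on simulated data. RNAseq and RF of a culture share a number in the labels and, per the authors' methods, came from 1 lysate, which pairs them. Their deviations from the group means had correlations of -0.0639 to 0.0719. Replicates are cultures of unstated relation, so p-values measure the spread between them. DESeq2 1.42.0, other scaling, other filters and leaving out each culture were alternatives. The members, gene lists and markers were chosen with earlier results of these data known. Each gene was named by the transcript with most RNAseq reads, the 5 nearest genes to Maff and Mafk by distance (prior count 1), and at most 4 genes per list by size or abundance, with further genes named after their values were seen. The patterns searched in promoters were chosen after the files were read. Of the remaining family genes, 1 is not reported here.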

Additional observations from a re-analysis of the deposited data

How the results depend on the processing

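The rises of Maff, Mafk and Mafg in RNAseq and RF passed the threshold in every alternative that tested them except RNAseq reads on the CDS alone, where 0 of 12 member transcripts passed. The CDS of these 3 genes held 0 to 5 RNAseq reads per library, and those of Nfe2l1 and Nfe2l2 did not pass in RNAseq with all regions either. With at least 100 reads in every library, 1 of 8 tested member transcripts passed in RNAseq and 6 of 7 in RF, and Maff, Mafk and, in RF, Mafg were not tested. With reads summed per gene or 1 transcript per gene, 3 of 5 passed in RNAseq and 5 of 5 in RF. Of the 11 RF calls among 12 transcripts, 6 remained in number with DESeq2 and 6 without a filter beyond 1 read, and leaving out each culture gave 5 to 11. The calls lost were those of Nfe2l1 and, without culture 4 or 5, Nfe2l2. RNAseq calls stayed at 5 when any culture was left out. In TE 0 member transcripts passed in each alternative. Without the replicate block the count was also 0, with changes of 0.19 for Maff, 0.12 for Mafk, 0.13 for Mafg, -0.41 for Nfe2l1 and 0.31 for Nfe2l2, so that pairing changed no call. With CDS RNAseq reads the TE change was 1.76 for Maff and 1.45 for Mafg, not called. The alternatives for transcripts outside the measured set were chosen after seeing the data.

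Over all transcripts the calls (2410 in RNAseq, 2973 in RF, 416 in TE) moved more than 1.5 times with at least 100 reads (1577, 1058 and 92), reads summed per gene (1415, 1691 and 252), 1 transcript per gene (1450, 1747 and 259), no filter (4166 and 5412), CDS RNAseq reads (1527, and 259 in TE), DESeq2 (179 in TE), without culture 4 (139 in TE) and without culture 5 (1700 in RF, 66 in TE). These are counts and not shares, and the number tested differed between settings. It was 7258 in the main fits, 5046, 2393 and 2285 (RNAseq, RF and TE) with at least 100 reads, and 4365 per gene. Without a filter it was 21950 in RNAseq and 20864 in RF. Depth limits the low members, with as few as 8 footprints of Mafk in an untreated library and 12 RNAseq reads of Maf.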
